A study of Mus musculus with 8 samples.

Results

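A set of 36 mouse genes that drive or mark the cell division cycle and DNA replication was followed in the heart ventricle. The genes were taken from a named list and matched by symbol to the deposited expression table, in which all 36 were found among 24341 genes. Values are FPKM, which divides the fragments of a gene by its length in kilobases and by the mapped fragments of the library in units of 1000000. By role they fall into 10 genes of the G1 phase (D- and E-type cyclins, their kinases, Rb1 and E2f1), 5 inhibitors of cyclin-dependent kinases, 9 genes of DNA replication and 12 genes of the G2 phase and mitosis, the last called mitotic here.

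RNA sequencing covered 8 ventricular lysates from male mice aged 12 weeks that had received tamoxifen in their chow, with 4 weeks between tamoxifen and the 12-week time point. The 4 cre_positive libraries carried a Cre recombinase together with floxed Med13 and Med13l (strain label Med13/13L fl/fl), and the 4 cre_negative libraries carried the same floxed alleles and received the same chow without Cre. The proteins Med13 and Med13l replace each other in the kinase module of the Mediator complex, which passes signals of transcription factors to RNA polymerase II. The series title places the deletion in cardiomyocytes, whereas the lysate held every cell type of the ventricle. Which Cre line was used is not given. Because Cre was present in 1 group only, deletion of the 2 genes and presence of active Cre cannot be told apart. Nothing in the labels says that each library came from a separate animal, and the library names of cre_negative 1 and cre_negative 2 share a number that may mark 1 animal, so the p-values measure the spread between these libraries.

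In a dividing cell, D-type cyclins bind the kinases Cdk4 and Cdk6 and phosphorylate the retinoblastoma protein Rb1, which frees E2F transcription factors. E2F proteins then raise the genes for cyclin E and for the replication machinery, and cyclin E with Cdk2 commits the cell to DNA synthesis. Later, cyclins A and B with Cdk1 drive the cell into mitosis, and inhibitors of the Cip/Kip and INK4 families hold these kinases back. Most cardiomyocytes of the adult mouse have left this cycle, and D-type cyclins are also known for their part in growth of cardiomyocytes without division. Many mitotic promoters carry a CHR element near CCAAT boxes, which the MuvB complexes and NF-Y bind, whereas many replication genes carry E2F sites.

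The promoters of 2 mitotic members and of the 2 replication members that changed are printed to show the elements named above in both classes. Each runs 5' to 3' on the strand of its gene, from 250 bases before the start to 50 bases after it, as RefSeq gives it for GRCm38.p6. Capitals mark CCAAT boxes (CCAAT, or ATTGG from the other strand), CHR elements (TTTGAA or TTCAAA) and E2F cores (any of the words TTCCCGC or TTCGCGC, as well as TTGCCGC or also TTGGCGC, on either strand), and E2F cores that overlap each other form 1 run of capitals. Cdk1 lies at chr10:69352863-69353162, Ccnb2 at chr9:70421505-70421804, Mcm6 at chr1:128359656-128359955 and Mcm3 at chr1:20820263-20820562, all on the minus strand.
Cdk1: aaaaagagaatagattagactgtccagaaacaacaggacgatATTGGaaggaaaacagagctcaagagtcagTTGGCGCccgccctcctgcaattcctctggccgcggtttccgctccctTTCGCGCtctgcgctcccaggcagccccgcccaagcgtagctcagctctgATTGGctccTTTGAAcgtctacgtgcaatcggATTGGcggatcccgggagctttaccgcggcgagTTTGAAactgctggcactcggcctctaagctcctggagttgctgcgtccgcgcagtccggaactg
Ccnb2: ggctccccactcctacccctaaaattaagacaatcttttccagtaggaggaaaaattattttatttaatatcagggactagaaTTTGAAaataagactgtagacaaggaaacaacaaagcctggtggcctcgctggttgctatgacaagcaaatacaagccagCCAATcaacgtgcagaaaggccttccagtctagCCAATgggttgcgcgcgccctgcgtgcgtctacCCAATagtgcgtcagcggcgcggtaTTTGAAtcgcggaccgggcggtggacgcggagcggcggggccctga
Mcm6: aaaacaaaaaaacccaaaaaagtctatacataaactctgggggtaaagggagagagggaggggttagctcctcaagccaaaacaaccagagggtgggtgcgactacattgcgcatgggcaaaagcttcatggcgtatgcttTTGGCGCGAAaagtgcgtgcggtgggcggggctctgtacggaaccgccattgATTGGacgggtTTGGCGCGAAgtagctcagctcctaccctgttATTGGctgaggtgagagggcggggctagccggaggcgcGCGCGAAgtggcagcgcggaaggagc
Mcm3: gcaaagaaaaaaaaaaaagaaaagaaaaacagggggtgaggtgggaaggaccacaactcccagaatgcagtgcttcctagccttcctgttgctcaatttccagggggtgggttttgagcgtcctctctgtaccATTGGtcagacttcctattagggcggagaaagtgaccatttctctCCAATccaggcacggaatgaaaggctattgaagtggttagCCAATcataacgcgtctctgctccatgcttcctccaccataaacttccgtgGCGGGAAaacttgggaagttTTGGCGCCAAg
The Cdk1 promoter held 3 CCAAT boxes, 2 CHR elements and 2 E2F cores. Ccnb2 held 3 CCAAT boxes and 2 CHR elements with 0 E2F cores. Mcm6 held 2 CCAAT boxes and 5 E2F cores, and Mcm3 held 3 CCAAT boxes and 3 E2F cores, both with 0 CHR elements.

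The RefSeq table gave a promoter for 28 of the 36 members, without Aurkb, Ccna2, Ccnd1, Ccnd2, Ccne2, Cdkn1c, Mcm4 and Rb1. A CCAAT box on either strand stood in 8 of 8 replication promoters, 9 of 10 mitotic ones, 1 of 6 G1 ones and 1 of 4 inhibitor ones, beside 38.0% of all 27025 promoters of the same length and 38.5% of those of genes tested for a change. A CHR element stood in 7 of 10 mitotic promoters, 1 of 8 replication ones, 1 of 4 inhibitor ones and 0 of 6 G1 ones, beside 18.2% of all promoters and 11.01% of those of tested genes. An E2F core stood in 6 of 8 replication promoters, 3 of 10 mitotic ones, 2 of 4 inhibitor ones and 1 of 6 G1 ones, beside 9.72% of all promoters and 17.2% of those of tested genes. CCAAT box and CHR together were found in 7 of 10 mitotic and 1 of 8 replication promoters, beside 7.16% of all promoters and 4.49% of those of tested genes. These are matches of letters in a 300-base window, and no binding was measured.

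Sequencing depth was estimated from the FPKM of genes with 1 fragment, and in units of 1000000 fragments the libraries held 4.54 to 23.8, highest in cre_positive 3 and 4 and cre_negative 2. The same 3 libraries had 10.3 to 16.0 FPKM of the ribosomal precursor Rn45s, against 396 to 1053 FPKM in the other 5, and values within these sets are given beside the main results. Med13 was at 8.73, 8.24, 8.16 and 7.39 FPKM in cre_positive libraries 1 to 4, against 11.05, 10.3, 15.3 and 11.4 FPKM in cre_negative libraries 1 to 4, a log2 change of -0.50 (limma adjusted p = 0.00612). That call ended within the 5 libraries of high Rn45s (log2 change -0.51, limma adjusted p = 0.0529) and after each library was scaled to a fixed FPKM sum (-0.21, limma adjusted p = 0.184). That sum left out small RNA genes, Rn45s, ribosomal protein genes and genes with a missing value. Med13l was at 2.35 to 2.59 FPKM in cre_positive and 4.38 to 6.13 FPKM in cre_negative libraries, a log2 change of -0.74 (limma adjusted p = 3.18e-04). Both targeted genes thus stood lower in every cre_positive library than in every cre_negative one. The test covered the 11688 genes that averaged 1 FPKM or more, of which 2307 were higher (19.7%) and 2269 lower (19.4%) in cre_positive libraries at a limma adjusted p under 0.05, so 39.2% of tested genes were called. Scaling to the fixed sum put the median of all tested genes at 0.26 on the log2 scale, against -0.01 as deposited, and gave 5445 genes higher (46.6%) and 1012 lower (8.66%).

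Among the 36 members, 24 reached the mean of 1 FPKM needed for the test, and these 24 reached it in each group separately. Of these, 6 were higher and 1 was lower in cre_positive ventricles. That is 29.2% of the 24, beside 39.2% of all tested genes, and 19.7% of all tested genes were called higher. The same 6 genes were higher in all 4 cre_positive libraries than in any cre_negative library, a pattern held by 19.3% of all tested genes, and the 1 lower gene showed the opposite order, held by 18.7%. Called higher were the D-type cyclins Ccnd1, Ccnd2 and Ccnd3, Cdk2, Mcm3 and Mcm6, and called lower was the inhibitor Cdkn1c. In a lysate of the whole ventricle, fewer cells of a type and less RNA per cell cannot be told apart. The median log2 change of the 24 was 0.08, beside -0.01 for all tested genes. By class it was 0.44 for 7 G1 members, -0.07 for 3 inhibitors, 0.10 for 9 replication members and 0.02 for 5 mitotic members.

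**Figure D1:**
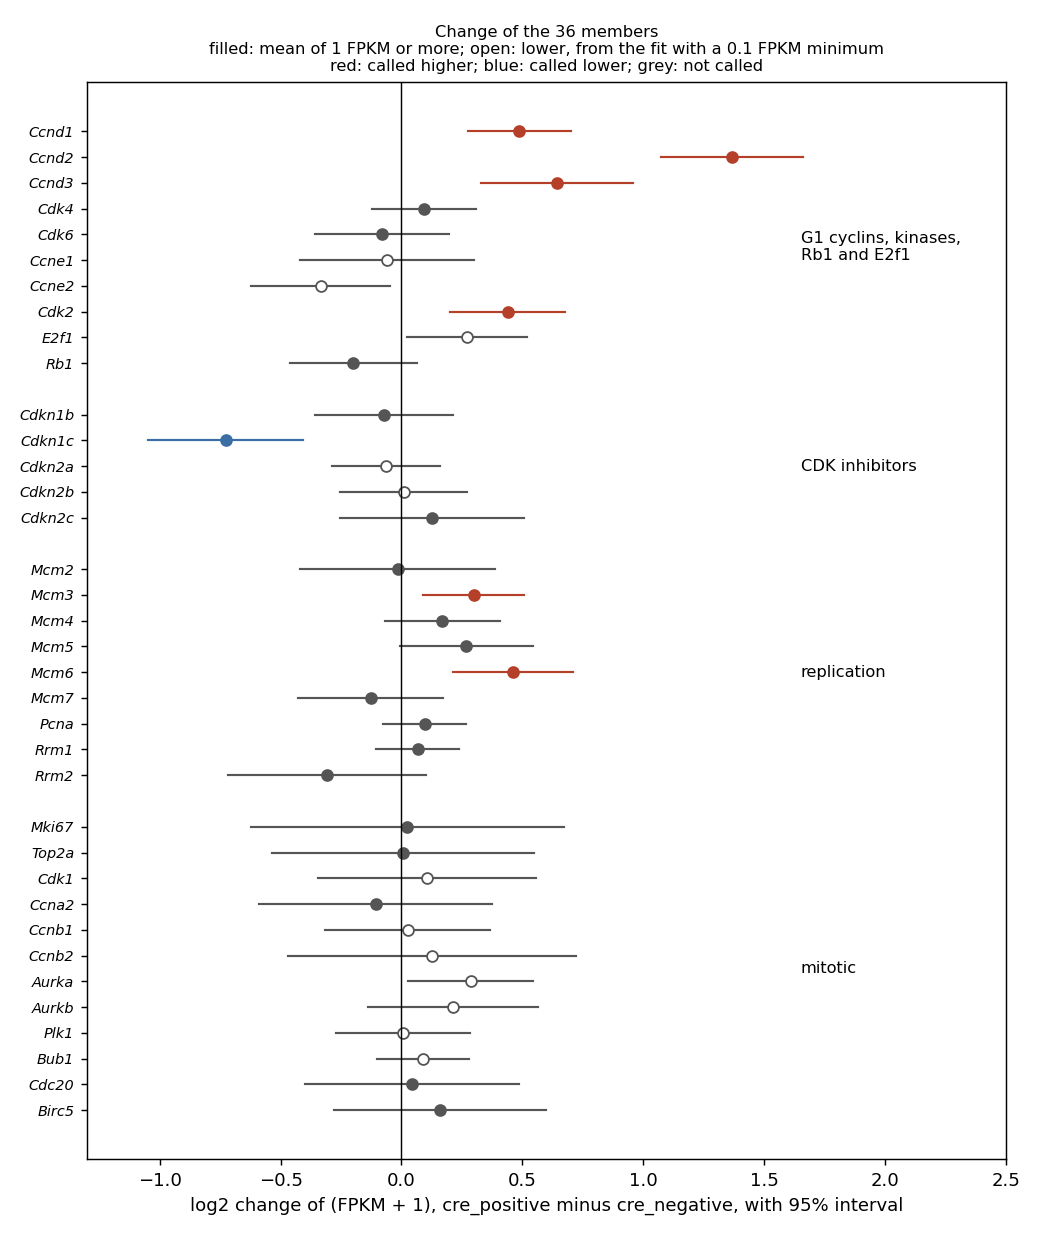
Log2 change of FPKM + 1 with its 95% interval for each of the 36 members, cre_positive minus cre_negative, by class from top to bottom. Filled points are the 24 members with a mean of at least 1 FPKM, open points the 12 below it from the fit with a minimum of 0.1 FPKM, and colour marks the 6 members called higher and the 1 called lower. The added 1 FPKM shrinks the changes and intervals of the open points.

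The 12 members under 1 FPKM were Ccne1, Ccne2 and E2f1 of G1, the inhibitors Cdkn2a and Cdkn2b, and the mitotic genes Cdk1, Ccnb1, Ccnb2, Aurka, Aurkb, Plk1 and Bub1. Just under the limit lay Aurka, Ccne2 and Ccnb2 with means of 0.793, 0.814 and 0.974 FPKM over 8 libraries. Just over it lay Cdc20, Birc5 and Rrm2 with 1.28, 1.34 and 1.41 FPKM. All 9 replication members passed. Counts below 3 fragments cannot be told from 0 here, and for a transcript of 2000 bases 3 fragments equalled 0.0655 and 0.0631 FPKM in the 2 deepest libraries and 0.330 FPKM in the shallowest. At least 1 library fell under that limit for 4 mitotic members (Ccnb1, Aurkb, Plk1 and Bub1), for E2f1 and for Cdkn2a, and for 0 replication members. These limits cover counting error only. With the minimum lowered to 0.1 FPKM, 17.0% of 14617 genes were called higher and 16.2% lower, and none of the 12 was called, with limma adjusted p of 0.0733 at the lowest. With a pseudocount of 0.1 in the same fit, 17.0% were called higher and 16.3% lower, and the lowest was 0.0742.

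**Figure D2:**
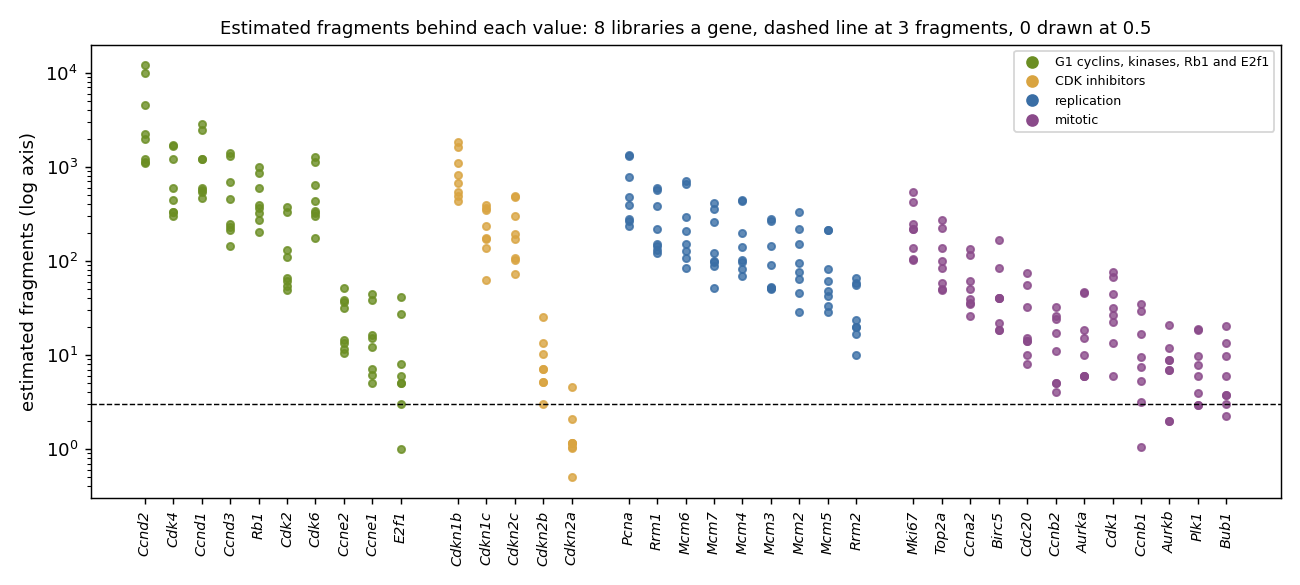
Estimated number of fragments behind each FPKM value on a log axis, 8 libraries a gene, ordered by mean level within each class. The dashed line stands at 3 fragments, and only E2f1, Cdkn2a, Ccnb1, Aurkb, Plk1 and Bub1 have points below it. Fragments are estimated at the length of the longest protein-coding transcript of each gene.

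All 3 D-type cyclins, which carry growth signals to Cdk4 and Cdk6, were higher in cre_positive ventricles, and Ccnd2 had the largest change of the 24 members tested. Ccnd2 (chromosome 6, 127125709 to 127212419, mm10) had 69.0, 82.0, 80.0 and 68.4 FPKM in cre_positive libraries 1 to 4, against 25.4, 22.7, 34.7 and 32.3 FPKM in cre_negative libraries 1 to 4. The lowest cre_positive value was above the highest cre_negative one by a wide margin. Its log2 change was 1.37 (SE 0.13, limma adjusted p = 2.49e-05), and the mean was 2.60-fold higher. Ccnd3 (chromosome 17, 47505051 to 47611492) had 25.9, 24.6, 27.8 and 26.8 FPKM in cre_positive libraries, against 15.6, 21.1, 12.1 and 18.2 FPKM in cre_negative libraries. The cre_positive libraries lay close together, and cre_negative libraries were spread more widely below them. The log2 change of Ccnd3 was 0.64 (SE 0.14, limma adjusted p = 0.00469). Ccnd1 (chromosome 7, 144929931 to 144939925) had 33.6, 36.8, 32.1 and 28.5 FPKM in cre_positive libraries, against 23.1, 20.8, 25.9 and 22.5 FPKM in cre_negative libraries. Here too the groups were apart, with a log2 change of 0.49 (SE 0.10, limma adjusted p = 0.00253). Within the 5 libraries of high Rn45s the log2 changes of Ccnd1, Ccnd2 and Ccnd3 were 0.55, 1.27 and 0.70, and within the 3 of low Rn45s, which hold 1 cre_negative library, 0.52, 1.66 and 0.35.

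**Figure D3:**
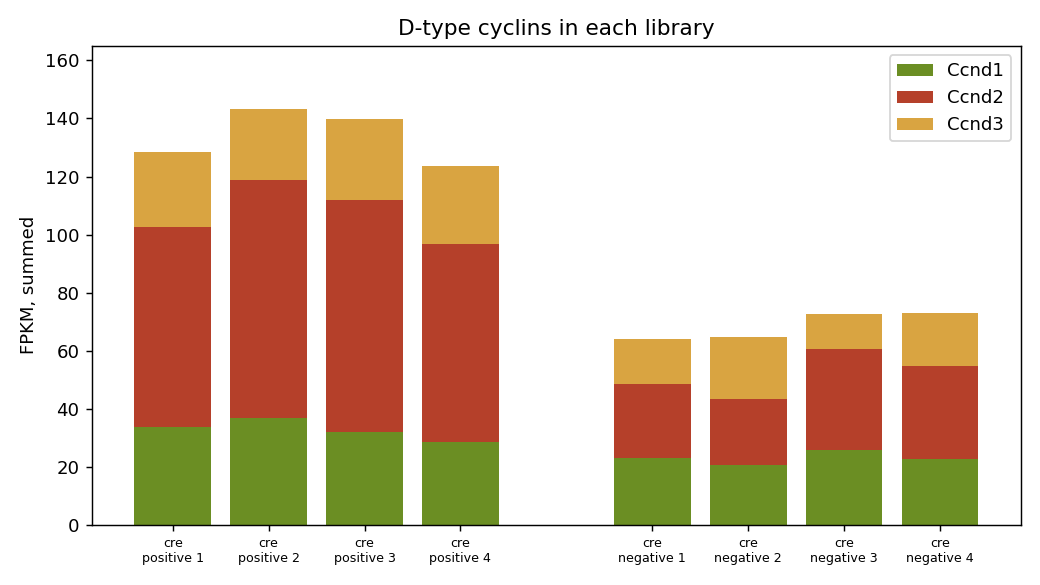
FPKM of Ccnd1, Ccnd2 and Ccnd3 stacked for each library, the 4 cre_positive libraries on the left. Every cre_positive bar, 124 to 143 FPKM, is taller than every cre_negative bar, 64.0 to 73.0 FPKM, and the Ccnd2 segment differs most.

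Summed over the 3 genes, D-type cyclins made 134 ± 9.29 FPKM in cre_positive libraries and 68.6 ± 4.90 FPKM in cre_negative libraries (SD, n = 4 each). The make-up of this sum differed as well. Ccnd2 held 55.8% ± 1.68 of it in cre_positive libraries and 41.7% ± 5.47 in cre_negative ones (SD, n = 4 each). Ccnd1 held 24.5% ± 1.70 and 33.6% ± 2.55 in the same order, and Ccnd3 19.7% ± 1.88 and 24.7% ± 6.56. Ccnd2 was the highest of the 3 in every library, but in cre_negative 2 the 3 cyclins lay close together, between 20.8 and 22.7 FPKM. Exons of Ccnd1 share 23.4% of their bases with LTO1 on the opposite strand, and those of Ccnd3 share 4.11% with Bysl, which averaged 9.81 FPKM in cre_positive and 10.6 FPKM in cre_negative libraries. The library kit marks strand, but whether the counting used it is not stated.

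The kinases that D-type cyclins bind did not pass the test on the deposited scale. Cdk4 had 32.6, 32.9, 34.2 and 36.1 FPKM in cre_positive libraries, against 31.2, 38.5, 29.0 and 29.1 FPKM in cre_negative libraries. The groups overlapped through cre_negative 2, and the log2 change was 0.09 with a 95% interval of -0.12 to 0.31 (limma adjusted p = 0.490). Scaling to a fixed sum, which moved the median of all tested genes to 0.26, gave Cdk4 a call at 0.40 (limma adjusted p = 0.00281). Exons of Cdk4 share 19.7% of their bases with Tspan31 on the opposite strand, which averaged 43.3 FPKM in cre_positive and 33.8 FPKM in cre_negative libraries. Cdk6 averaged 4.10 ± 0.550 FPKM in cre_positive and 4.41 ± 0.771 FPKM in cre_negative libraries (SD, n = 4 each), a log2 change of -0.08 with an interval of -0.36 to 0.20. The retinoblastoma gene Rb1, the target of these kinases, averaged 9.09 ± 0.738 FPKM in cre_positive and 10.7 ± 1.80 FPKM in cre_negative libraries (SD, n = 4 each). Its log2 change of -0.20 (limma adjusted p = 0.214) turned into a call of -0.31 (limma adjusted p = 0.0254) without cre_negative 2.

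At the end of G1, Cdk2, the partner of cyclins E and A, was higher in cre_positive ventricles. It had 4.92, 5.26, 6.52 and 6.08 FPKM in cre_positive libraries, against 3.94, 3.51, 3.68 and 4.59 FPKM in cre_negative libraries. The 2 groups did not overlap, although cre_positive 1 and cre_negative 4 came close. The log2 change was 0.44 (SE 0.11, limma adjusted p = 0.00832). Within high Rn45s it was 0.27 (limma adjusted p = 0.183), and within low Rn45s 0.69. The E-type cyclins lay under the limit for the test. Ccne1 had 0.671, 0.407, 0.804 and 0.976 FPKM in cre_positive libraries, against 0.883, 0.523, 1.36 and 0.461 FPKM in cre_negative libraries, with full overlap. Ccne2 had 0.776, 0.542, 0.507 and 0.560 FPKM in cre_positive libraries, against 1.53, 1.10, 0.687 and 0.814 FPKM in cre_negative libraries. 3 of the cre_positive libraries lay below all cre_negative ones, and the log2 change of -0.33 in the fit with the 0.1 FPKM minimum had a limma adjusted p of 0.0733. E2f1, the transcription factor held by Rb1, had 0.478, 0.207, 0.418 and 0.660 FPKM in cre_positive libraries, against 0.0523, 0.186, 0.194 and 0.328 FPKM in cre_negative libraries. The lowest of these rests on about 1 fragment and cre_negative 3 lies just under 3 fragments. The log2 change of E2f1 was 0.27 in the same fit, with a limma adjusted p of 0.0908. The added 1 FPKM shrinks changes at these levels. With a pseudocount of 0.1 the log2 changes of Ccne2 and E2f1 were -0.66 and 0.92 (limma adjusted p = 0.0742 and 0.0986).

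**Figure D4:**
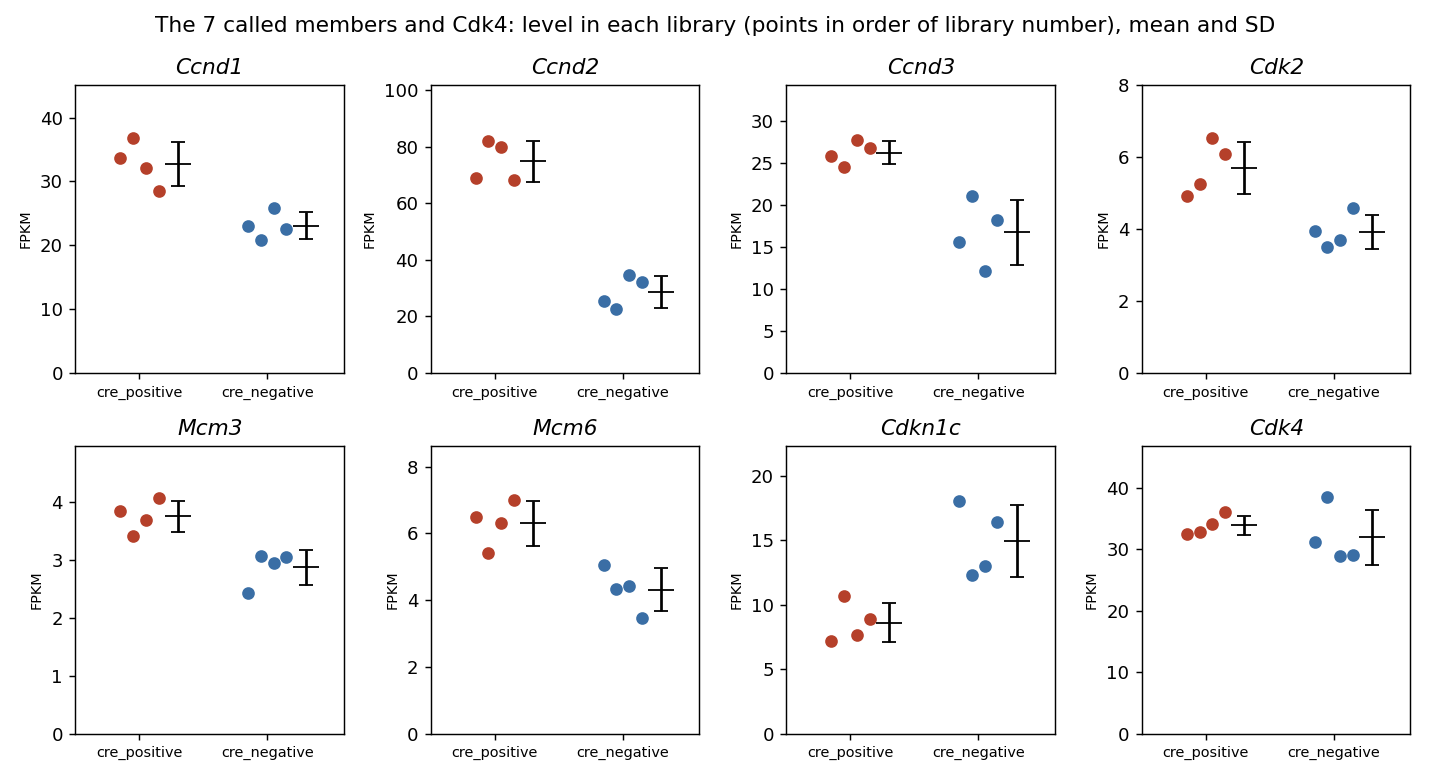
FPKM of the 7 called members and of Cdk4 in each library, cre_positive left of cre_negative, with mean and SD beside the points and each axis starting at 0. Groups do not overlap in the first 7 panels, Cdkn1c is the 1 gene with lower cre_positive points, and Cdk4 is shown as a gene that was not called on the deposited scale but was after scaling to a fixed sum.

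Of the kinase inhibitors, Cdkn1c fell. This gene of the Cip/Kip family (chromosome 7, 143458339 to 143461050) had 7.20, 10.6, 7.68 and 8.93 FPKM in cre_positive libraries, against 18.1, 12.3, 13.0 and 16.4 FPKM in cre_negative libraries. Every cre_positive value was under every cre_negative one, with cre_positive 2 and cre_negative 2 the nearest. The log2 change was -0.73 (SE 0.14, limma adjusted p = 0.00258), and it was -0.77 within high Rn45s and -0.52 within low Rn45s. Exons of Cdkn1c share 30.7% of their bases with the antisense gene Gm44732. Its relative Cdkn1b averaged 18.4 ± 2.72 FPKM in cre_positive and 19.4 ± 2.80 FPKM in cre_negative libraries (SD, n = 4 each), a log2 change of -0.07 with an interval of -0.36 to 0.21. Among INK4 inhibitors, which act on Cdk4 and Cdk6, Cdkn2c averaged 8.58 ± 0.696 FPKM in cre_positive and 8.03 ± 2.54 FPKM in cre_negative libraries (SD, n = 4 each), with an interval of -0.26 to 0.51 on the log2 scale. Cdkn2b had 0.321 to 0.808 FPKM in cre_positive and 0.393 to 0.744 FPKM in cre_negative libraries, on 3.05 to 25.3 fragments. Cdkn2a was not detectable above 3 fragments in 7 of 8 libraries, the exception being cre_negative 2 with about 4.61 fragments and 0.333 FPKM.

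Beside these differences, markers of heart cell types differed between the groups. Over all tested genes, 19.7% were called higher and 19.4% lower, which is 39.2% called. Called among tested markers were 75.0% for cardiomyocytes, 71.4% for macrophages and 62.5% each for fibroblasts and for smooth muscle and pericytes. The endothelial share of 37.5% lay near that of all tested genes in either direction. All of these endothelial calls were lower, however, beside 19.4% of all tested genes lower. Of 8 cardiomyocyte markers 6 were lower and 0 higher, and their sum, without Ttn, was 14817 to 16559 FPKM in cre_positive and 42332 to 46896 FPKM in cre_negative libraries. Of 8 fibroblast markers 4 were higher and 1 lower, with sums of 1232 to 1524 FPKM in cre_positive and 1010 to 1134 FPKM in cre_negative libraries. Smooth muscle and pericyte markers counted 3 higher and 2 lower of 8, with sums of 978 to 1429 FPKM in cre_positive and 578 to 713 FPKM in cre_negative libraries. Of the contractile genes among the cardiomyocyte markers, Actn2 and Ttn were not called. The smooth muscle actin gene Acta2 alone made 598 to 1006 FPKM in cre_positive and 149 to 253 FPKM in cre_negative libraries. Without it the smooth muscle and pericyte sum was 381 to 442 FPKM in cre_positive and 429 to 486 FPKM in cre_negative libraries. Of the rest, Cnn1 and Tagln were called higher, with log2 changes of 4.11 and 0.62 (limma adjusted p = 2.41e-06 and 0.0148). Kcnj8 and Abcc9 were called lower. Endothelial markers were lower in 3 of 8, with 337 to 387 FPKM in cre_positive and 412 to 475 FPKM in cre_negative libraries, and macrophage markers in 5 of 7 tested, with 138 to 206 FPKM in cre_positive and 231 to 282 FPKM in cre_negative libraries. The part of cell make-up in the changes of the members was not tested.

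The replication members form the licensing helicase (Mcm2 to Mcm7, the ring loaded at origins that unwinds DNA), the sliding clamp Pcna and the ribonucleotide reductase subunits Rrm1 and Rrm2, which supply deoxynucleotides. Of these 9, 2 were higher and 0 lower in cre_positive ventricles, which is 22.2% higher, beside 19.7% of all tested genes. Mcm6 (chromosome 1, 128331591 to 128359656) had 6.49, 5.40, 6.31 and 7.01 FPKM in cre_positive libraries, against 5.04, 4.35, 4.42 and 3.47 FPKM in cre_negative libraries. The groups did not overlap, with cre_positive 2 close above cre_negative 1, and the log2 change was 0.46 (SE 0.11, limma adjusted p = 0.00815). Mcm3 (chromosome 1, 20803014 to 20820213) had 3.86, 3.43, 3.70 and 4.07 FPKM in cre_positive libraries, against 2.44, 3.07, 2.95 and 3.06 FPKM in cre_negative libraries. The groups were again apart by a small margin, and the log2 change was 0.30 (SE 0.09, limma adjusted p = 0.0283). The Mcm3 call was lost without any of 4 single libraries, with the log2 change at 0.29 without cre_positive 1 (limma adjusted p = 0.0547), 0.30 without cre_positive 3 (0.0633), 0.27 without cre_positive 4 (0.0782) and 0.24 without cre_negative 1 (0.0816). Within high Rn45s the log2 changes of Mcm6 and Mcm3 were 0.39 and 0.29 (limma adjusted p = 0.130 and 0.176), and within low Rn45s 0.52 and 0.26.

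The other subunits of the same ring did not pass the test. Mcm5 had 2.16, 2.08, 2.66 and 2.78 FPKM in cre_positive libraries, against 2.03, 1.57, 1.51 and 2.29 FPKM in cre_negative libraries, a log2 change of 0.27 with an interval of -0.01 to 0.54 (limma adjusted p = 0.115). Mcm4 averaged 4.81 ± 0.526 FPKM in cre_positive and 4.18 ± 0.586 FPKM in cre_negative libraries (SD, n = 4 each), with an interval of -0.07 to 0.41. Mcm2 averaged 3.03 FPKM in both groups, with SD of 0.936 in cre_positive and 0.744 in cre_negative libraries (n = 4 each) and an interval of -0.42 to 0.39. Mcm7 averaged 4.93 ± 0.910 FPKM in cre_positive and 5.47 ± 0.827 FPKM in cre_negative libraries (SD, n = 4 each), with an interval of -0.43 to 0.17. In all 8 libraries together, the subunits ranged in mean level between 2.14 FPKM for Mcm5 and 5.31 FPKM for Mcm6. Pcna, at 36.1 ± 1.43 FPKM in cre_positive and 33.8 ± 2.77 FPKM in cre_negative libraries (SD, n = 4 each), was the most abundant replication member, with an interval of -0.08 to 0.27 on the log2 scale. Rrm1 averaged 6.34 ± 0.186 FPKM in cre_positive and 6.01 ± 0.402 FPKM in cre_negative libraries (SD, n = 4 each), with an interval of -0.10 to 0.24. Rrm2, the subunit that dividing cells make in S phase, had 1.99, 0.517, 1.11 and 1.11 FPKM in cre_positive libraries, against 1.57, 1.95, 1.37 and 1.64 FPKM in cre_negative libraries. Apart from cre_positive 1, its cre_positive values were under all cre_negative ones. The log2 change of Rrm2 was -0.31 (limma adjusted p = 0.216), and -0.48 (limma adjusted p = 0.0341) without cre_positive 1. After scaling to a fixed sum, where the median of all tested genes stood at 0.26, 6 of the 9 replication members were called higher (Mcm3, Mcm4, Mcm5, Mcm6, Pcna and Rrm1), beside 46.6% of all tested genes.

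None of the 5 mitotic members tested was called in either direction, beside 39.2% of all tested genes. Mki67, which encodes the proliferation antigen Ki-67, had 4.79, 1.17, 1.76 and 2.32 FPKM in cre_positive libraries, against 1.97, 1.58, 3.92 and 1.86 FPKM in cre_negative libraries. The highest value of each group stood in 1 library, cre_positive 1 and cre_negative 3, and the groups overlapped fully. The log2 change was 0.02 with an interval of -0.62 to 0.67, which leaves room for a difference in either direction. Top2a, the topoisomerase that untangles chromosomes, had 3.58, 1.06, 1.80 and 2.28 FPKM in cre_positive libraries, against 1.61, 1.71, 3.42 and 1.72 FPKM in cre_negative libraries, an interval of -0.54 to 0.55. Ccna2, the cyclin of S phase and G2, had 2.90, 0.989, 1.63 and 1.96 FPKM in cre_positive libraries, against 1.75, 1.34, 3.03 and 2.14 FPKM in cre_negative libraries, an interval of -0.59 to 0.37. The same 2 libraries led for all 3 genes. Cdc20, the activator of the anaphase-promoting complex, had 1.73, 0.513, 1.31 and 1.81 FPKM in cre_positive libraries, against 0.812, 1.16, 1.501 and 1.43 FPKM in cre_negative libraries. Birc5, which encodes survivin of the chromosomal passenger complex, had 1.21, 1.38, 1.06 and 2.17 FPKM in cre_positive libraries, against 0.956, 0.787, 2.16 and 1.00 FPKM in cre_negative libraries. Their intervals were -0.40 to 0.49 and -0.28 to 0.60 on the log2 scale. With a minimum and pseudocount of 0.1 FPKM they were -0.75 to 0.81 and -0.40 to 0.97.

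**Figure D5:**
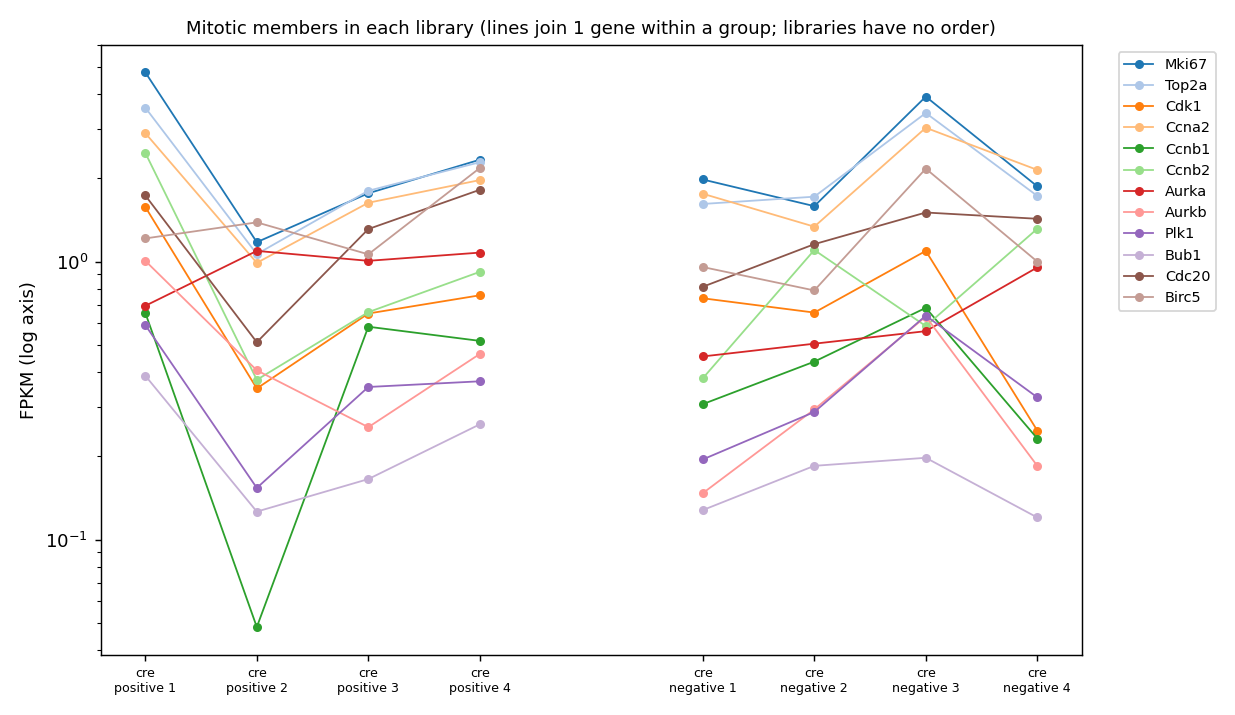
FPKM of the 12 mitotic members in each library on a log axis, the 4 cre_positive libraries on the left and lines joining 1 gene within a group. Most lines peak in cre_positive 1 and cre_negative 3 and are lowest in cre_positive 2.

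High and low values of the mitotic members fell largely in the same libraries of each group. Summed over the 12 genes they made 21.6, 7.68, 11.2 and 14.9 FPKM in cre_positive libraries 1 to 4, against 9.46, 10.04, 18.4 and 11.5 FPKM in cre_negative libraries 1 to 4. Within its group, cre_positive 1 was highest for 9 of the 12 genes and cre_positive 2 lowest for 9, and cre_negative 3 was highest for 10. In the other classes, cre_positive 1 was highest for 1 of 10 G1 members, 4 of 5 inhibitors and 2 of 9 replication members, and cre_negative 3 was highest for 5, 0 and 1 of them. The lowest cre_positive value stood in cre_positive 2 for 3 G1 members, 1 inhibitor and 4 replication members. In cre_positive 1 and cre_negative 3, lymphocyte markers summed to 3.48 and 3.07 FPKM, within 3.22 to 4.54 FPKM over cre_positive and 3.07 to 7.75 FPKM over cre_negative libraries, and macrophage markers to 176 and 231 FPKM. In cre_positive 1, 5 of the 8 lymphocyte markers were listed at the fill value of 0.01 FPKM. The others there were Ptprc at 2.82, Cd3g at 0.457 and Cd4 at 0.207 FPKM. At the fill value stood 3 markers in cre_negative 3, 3 in cre_negative 4 and 1 in cre_negative 1. In libraries of low depth a fill value does not show that a gene was absent. Neutrophil markers were highest in cre_negative 2, at 70.9 FPKM against 2.53 to 6.90 FPKM in the other cre_negative libraries, and at 1.84 to 5.18 FPKM in cre_positive ones, with Mpo and Elane at the fill value in all 8. Erythroid markers made 457 to 712 FPKM in cre_positive and 474 to 1103 FPKM in cre_negative libraries. In units of 1000000 fragments, cre_positive 1 held 4.54 and cre_negative 3 held 5.58, among the lower depths, and Mki67 rests on about 219 and 220 fragments in them.

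The 7 mitotic members under 1 FPKM are the kinases Cdk1, Aurka, Aurkb, Plk1 and Bub1 and the B-type cyclins Ccnb1 and Ccnb2, which bind Cdk1. Cdk1 had 1.57, 0.350, 0.651 and 0.756 FPKM in cre_positive libraries, against 0.738, 0.656, 1.09 and 0.247 FPKM in cre_negative libraries. Ccnb2 had 2.46, 0.376, 0.658 and 0.919 FPKM in cre_positive libraries, against 0.381, 1.10, 0.586 and 1.31 FPKM in cre_negative libraries. Both were highest in cre_positive 1, where they rest on about 31.2 and 17.1 fragments. Ccnb1 had 0.0485 to 0.654 FPKM in cre_positive and 0.231 to 0.682 FPKM in cre_negative libraries, and its lowest value rests on about 1.06 fragments. Aurka, the kinase of spindle poles, had 0.694, 1.09, 1.01 and 1.08 FPKM in cre_positive libraries, against 0.456, 0.507, 0.562 and 0.953 FPKM in cre_negative libraries. Only cre_positive 1 and cre_negative 4 overlapped, and the log2 change in the fit with the 0.1 FPKM minimum was 0.29 (SE 0.12, limma adjusted p = 0.0873). With a pseudocount of 0.1 in place of 1 the change was 0.60 (limma adjusted p = 0.0950). The Aurka values in the 5 libraries of high Rn45s rest on 5.97 to 18.2 fragments. Aurkb had 0.254 to 1.01 FPKM in cre_positive and 0.147 to 0.634 FPKM in cre_negative libraries, Plk1 0.154 to 0.591 and 0.194 to 0.639 FPKM in the same order, and the checkpoint kinase Bub1 0.126 to 0.389 and 0.120 to 0.197 FPKM. In the fit with the 0.1 FPKM minimum and a pseudocount of 1, their limma adjusted p were 0.342, 0.972 and 0.467. The 95% intervals there were -0.14 to 0.56, -0.27 to 0.28 and -0.10 to 0.28 on the log2 scale. The added 1 FPKM narrows such intervals at these levels. With a pseudocount of 0.1 the intervals were -0.33 to 1.57, -0.82 to 0.86 and -0.40 to 1.06, which leaves room for larger differences. Each of the 3 had at least 1 library under 3 fragments.

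Further genes of the same pathways were taken from 4 lists of 135 genes, of which 91 were tested and 10 were higher and 12 lower, beside 19.7% of all tested genes higher and 19.4% lower. After scaling to a fixed sum 38 were higher and 6 lower, beside 46.6% and 8.66% of all tested genes. Among E2F factors, their partners and pocket proteins, 3 of 13 were higher and 2 lower, with a median log2 change of -0.04. E2f3, an activating E2F, averaged 4.44 ± 0.675 FPKM in cre_positive and 3.08 ± 0.266 FPKM in cre_negative libraries (log2 change 0.41, limma adjusted p = 0.0122). The repressor E2f6 averaged 23.5 ± 2.57 FPKM in cre_positive and 35.2 ± 3.86 FPKM in cre_negative libraries (log2 change -0.56, limma adjusted p = 0.00178). The E2F partner Tfdp2 changed by -0.38 (limma adjusted p = 0.00645), a call that scaling to a fixed sum ended, at -0.08. The MuvB subunit Lin37 changed by 0.57 (limma adjusted p = 0.0233), but its groups overlapped, and the call ended without cre_positive 3 (log2 change 0.49, limma adjusted p = 0.0730) or cre_negative 4 (0.54 and 0.0638).

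Among other regulators of G1, 2 of 18 were higher and 3 lower, with a median of 0.04. That is 27.8% called, beside 39.2% of all tested genes. Cdkn1a, the Cip/Kip inhibitor that p53 induces, had 22.1, 11.9, 17.0 and 12.5 FPKM in cre_positive libraries, against 2.11, 9.42, 2.88 and 3.69 FPKM in cre_negative libraries. All cre_positive values were higher, and over all libraries the log2 change was 1.73 (SE 0.33, limma adjusted p = 0.00219). Far above the other cre_negative libraries stood cre_negative 2, the only cre_negative library of low Rn45s. Within low Rn45s the groups lay closer, at 17.0 and 12.5 FPKM in cre_positive 3 and 4 against 9.42 FPKM. The call held in all 23 other settings. Cdkn1a thus changed opposite to its relative Cdkn1c. Ccng1, another gene that p53 induces, averaged 315 ± 28.3 FPKM in cre_positive and 639.9 ± 21.3 FPKM in cre_negative libraries, a log2 change of -1.02 (limma adjusted p = 6.85e-06). Fbxw7, the ubiquitin ligase subunit that marks cyclin E for breakdown, averaged 16.8 ± 1.26 FPKM in cre_positive and 34.8 ± 3.57 FPKM in cre_negative libraries, a log2 change of -1.002 (limma adjusted p = 1.57e-05). Ccnh, the cyclin of the kinase that activates other cyclin-dependent kinases, changed by -0.46 (limma adjusted p = 0.00209), and by -0.17 without a call after scaling to a fixed sum.

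In the wider replication list, 2 of 32 genes were higher and 5 lower, with a median of -0.06. That is 21.9% called, beside 39.2% of all tested genes. Gmnn, which encodes geminin, the inhibitor of origin licensing, had 11.1, 14.3, 13.1 and 12.2 FPKM in cre_positive libraries, against 29.3, 41.5, 23.0 and 34.9 FPKM in cre_negative libraries. It was lower in every cre_positive library, with a log2 change of -1.25 (SE 0.16, limma adjusted p = 1.43e-04). Gins1, part of the helicase that travels with the fork, changed by -0.65 (limma adjusted p = 0.00708). Mcm9, a helicase of DNA repair, changed by 0.53 (limma adjusted p = 0.00911), and the origin recognition subunit Orc2 by 0.40 (limma adjusted p = 0.00441). Exons of Orc2 share 29.8% of their bases with Nif3l1 and those of Mcm9 19.2% with Asf1a, each on the opposite strand.

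In the wider mitosis list, 3 of 28 genes were higher and 2 lower, with a median of 0.07. That is 17.9% called, beside 39.2% of all tested genes. The largest log2 change was that of Cenpf, which encodes a kinetochore protein. It had 0.967, 0.290, 0.452 and 0.545 FPKM in cre_positive libraries, against 8.61, 3.26, 15.4 and 1.92 FPKM in cre_negative libraries. The cre_negative values were spread widely but all lay above the cre_positive ones, with a log2 change of -2.11 (SE 0.45, limma adjusted p = 0.00403). Cenpf reached the mean of 1 FPKM through the cre_negative libraries only, as its means were 0.564 FPKM in cre_positive and 7.31 FPKM in cre_negative libraries. Its place among the tested genes thus depended on the group where it was high. Within each group Cenpf was highest in cre_positive 1 and cre_negative 3, as were Mki67 and Top2a. Unlike Cenpf, Mki67 and Top2a overlapped between the groups. The anaphase-promoting complex genes Anapc2 and Cdc27 changed by 0.34 and 0.32 (limma adjusted p = 0.0104 and 0.0222), and the condensin gene Smc2 by 0.35 (limma adjusted p = 0.0404). The Cdc27 call ended without cre_positive 1 (log2 change 0.28, limma adjusted p = 0.0558) or cre_positive 2 (0.30 and 0.0637). The Smc2 call ended without any of 7 single libraries, cre_negative 3 being the exception, with log2 changes of 0.28 to 0.38 and limma adjusted p of 0.0529 to 0.0959.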

How the data were processed

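The deposited values are FPKM, 1 per gene and library, which the authors made with Cufflinks from Bowtie2 2.2.6 alignments to mm10, per the submitters' processing notes. The labels' protocols name a stranded total RNA kit with depletion of ribosomal RNA. The annotation and whether strand entered the counting are not given in these sources. The lowest deposited value, 0.01 FPKM, is taken to stand for values too low to estimate. Cells holding a word (6, in 3 genes) were treated as missing.

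From these values, log2(FPKM + 1) was fitted with limma (version 3.58.1, R 4.3.3, eBayes with trend and no covariates) for the 11688 genes averaging 1 FPKM or more. Benjamini-Hochberg adjustment ran over all of them, with 0.05 as the threshold for a call. Log2 changes on this scale understate those of low genes, and intervals are 95% intervals of the fit. Fragments per library were estimated from the cluster of FPKM times length at 1 fragment over 3664 single-transcript genes of 500 to 4000 bases. The fit and the estimate were tested on simulated data. In 10 simulated tables with 200 of 11685 genes changed, the fit recovered 48.5% of log2 changes of 0.5 and 91.5% of changes of 1. Of the calls there, 4.58% were false. Far fewer genes changed there than were called here, so these rates need not hold for the data. The depth estimate returned the simulated depth, but the simulated FPKM were made with the same lengths that the estimate uses. How well it holds for the deposited FPKM was thus not tested. Libraries were split at 100 FPKM of Rn45s. Other pseudocounts, filters, scalings, variance models, a replicate block, the Rn45s sets and each left-out library were tried.

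The members and lists were chosen with earlier results of these data known. Named were all 36 members, the 2 targeted genes and up to 4 called genes with the largest change from each further list. The marker genes Cnn1, Tagln, Ptprc, Cd3g, Cd4, Mpo and Elane and the genes overlapping a member were chosen after their values were seen. Figures were drawn with matplotlib 3.10.9.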

Additional observations from a re-analysis of the deposited data

Results flagged for a closer look

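Within groups of 4 libraries, 108 groups of values were searched for a library far from the other 3 by Dixon's criterion at the 95% level, and 5 were found, where chance gives about 1 in 20 groups. In cre_negative 3, Mki67 stood at 3.92 FPKM against 1.58 to 1.97 FPKM in the other cre_negative libraries, Top2a at 3.42 against 1.61 to 1.72 FPKM, and Birc5 at 2.16 against 0.787 to 1.00 FPKM. These 3 mitotic genes were flagged in the same library, so they are not independent. The targeted gene Med13l was also highest in cre_negative 3, at 6.13 FPKM against 4.38 to 4.62 FPKM in the others. Anapc2 was low in cre_positive 1, at 9.98 FPKM against 12.2 to 12.5 FPKM in the other cre_positive libraries.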

How the results depend on the processing

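Ccnd1, Ccnd2, Ccnd3 and Cdkn1c kept direction and call in all 23 other settings in which they were fitted, with log2 changes of 0.43 to 0.79, 1.26 to 1.67, 0.50 to 0.94 and -0.87 to -0.44. Scaling to a fixed sum called 5445 genes higher and 1012 lower, 5 G1 members higher (with Cdk4), 6 replication members higher, 38 other pathway genes higher and 6 lower, and 13 markers higher. In the 5 libraries of high Rn45s, 0 replication members and 4 other pathway genes were called higher. Cdk2, E2f3, Mcm9, Anapc2, Smc2 and Med13 lost their calls there, with log2 changes of 0.27, 0.41, 0.56, 0.28, 0.32 and -0.51. Over all tested genes, calls in these 5 libraries also fell below the 2307 higher and 2269 lower of the main fit. The lost calls thus do not set the members apart from other genes. A minimum of 5 FPKM took Mcm3, with a mean of 3.32 FPKM, out of the test and so left 1 replication member higher. A replicate block left 1 as well, since Mcm3 lost its call (limma adjusted p = 0.0739). Title numbers did not pair the libraries, since same-numbered deviations correlated at -0.16 to -0.08, and the block changed no other call of a member but ended those of Lin37, Smc2 and Cdc27 (limma adjusted p = 0.0567, 0.0597 and 0.0580). Array weights called 1 G1 member lower (Rb1). Leaving out single libraries gave 1 to 2 replication members higher, 0 to 1 lower (Rrm2) and 0 to 1 G1 members lower (Rb1). Apart from the removal of Mcm3 by the 5 FPKM minimum, the cause of these shifts was not tested.

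Of the members not called, 14 took the other sign in at least 1 setting, and none was called then. With a fixed sum the log2 change was 0.17 for Cdk6, 0.087 for Rb1, 0.23 for Cdkn1b, 0.22 for Mcm2, 0.14 for Mcm7 and 0.096 for Ccna2. With array weights it was 0.021 for Cdk6, -0.025 for Cdkn2c, 0.14 for Mcm2, 0.075 for Mcm7 and -0.060 for Mki67. With the Rn45s set as a term Cdkn1b was at 0.019, and within high Rn45s Cdkn1b was at 0.0014, Mcm4 at -0.0022, Top2a at -0.038, Cdc20 at -0.13 and Birc5 at -0.0099. With cre_negative 1 and 2 averaged, Mki67 was at -0.050, Top2a at -0.058 and Cdc20 at -0.010. Top2a was at -0.011 with a pseudocount of 0.1 and with quantile normalization, and at -0.00027 with 0.5. With a minimum and pseudocount of 0.1 FPKM, an alternative chosen after seeing the data, Cdkn2b was at -0.00068, Top2a at -0.011 and Ccnb1 at -0.064. Leaving out single libraries gave -0.17 to 0.0053 for Cdkn1b, -0.031 to 0.29 for Cdkn2c, -0.14 to 0.13 for Mcm2, -0.25 to 0.23 for Mki67, -0.19 to 0.19 for Top2a, -0.27 to 0.055 for Ccna2 and -0.057 to 0.24 for Cdc20. Depth limits what can be said of Ccnb1, Aurkb, Plk1, Bub1, E2f1 and Cdkn2a, which had libraries under 3 fragments, and the spread between libraries was wide for well counted mitotic genes too (SE 0.29 for Mki67).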
